A study of Mus musculus with 6 samples.

Results

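The L6 family of mouse membrane proteins was examined through its 5 genes Tm4sf1, Tm4sf4, Tm4sf5, Tm4sf19 and Tm4sf20, each represented by 1 feature of the array, so 5 of the 41230 features with a value. Members were taken as the features whose platform annotation gives exactly 1 gene symbol, where that symbol is one of the 5. The family was chosen by the score of Tm4sf4, which stood among the most negative of the series in the comparison of Prox1 with vector cells, so its values and those of its relatives in that comparison are given as a description and not as a test. MMH cells carrying Prox1, a homeobox transcription factor of the developing liver, were compared with MMH cells carrying the empty pCDNA3.1 vector. MMH stands for Met murine hepatocytes, a line of immortalised mouse liver cells, and the sample titles name embryonic day 14. The labels do not say whether either line was a clone or a pool, or whether arrays came from separate cultures. The spread between arrays may therefore be technical.

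L6 proteins cross the membrane 4 times and resemble tetraspanins in outline, but form a family of their own. They sit at the cell surface and in vesicles, where several of them act with integrins and growth factor receptors. Human TM4SF1 was first known as the L6 antigen of epithelial tumours. Tm4sf4 is also called the intestine and liver tetraspan membrane protein. Human TM4SF5 has been studied in liver cancer and fibrosis, human TM4SF19 in osteoclasts, and TM4SF20 is best known from the gut epithelium.

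Each of the 6 arrays held both RNAs in 2 colours. Prox1 RNA was labelled with Cy5 on 3 arrays (replicates 1, 2 and 3), and with Cy3 on 3 arrays whose deposited columns were identical in all features and count as 1 profile. A value is a signed score of Prox1 RNA against vector RNA, scaled by the authors to an SD of 1 on every array. It is neither a level nor a fold change, and presence of a transcript cannot be read from it. Nor can a drop in RNA per cell be told apart from a drop in the number of cells that carry it. Scores above 0 likely mean more RNA in the Prox1 cells. The labels alone do not settle this direction, which rests on 1 Prox1 feature with scores of 5.44, 5.22 and 5.17 across the Prox1-in-Cy5 arrays and 6.60 in the Prox1-in-Cy3 profile. The other 2 Prox1 features lay between −0.38 and 0.55 in the 4 profiles. If the direction were the opposite, every sign below would turn.

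Tm4sf1 and Tm4sf4, the 2 members with the most negative scores, lie next to each other on mouse chromosome 3, with no other measured protein-coding gene between them in the RefSeq gene order. The 250 bases before their RefSeq transcription starts (build GRCm38.p6, 5′ to 3′ on the strand of the gene) are printed because these are the proximal promoters of the pair whose scores were low together. The Tm4sf4 sequence covers chr3:57425160-57425409 on the plus strand and the Tm4sf1 sequence chr3:57301989-57302238 on the minus strand. Capitals would mark a match to 1 of the motifs named after them, and neither sequence held any.
Tm4sf4: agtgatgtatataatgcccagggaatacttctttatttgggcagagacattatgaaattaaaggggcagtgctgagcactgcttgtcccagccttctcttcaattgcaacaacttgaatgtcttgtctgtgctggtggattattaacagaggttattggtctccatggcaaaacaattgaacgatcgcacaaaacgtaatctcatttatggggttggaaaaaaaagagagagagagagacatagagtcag
Tm4sf1: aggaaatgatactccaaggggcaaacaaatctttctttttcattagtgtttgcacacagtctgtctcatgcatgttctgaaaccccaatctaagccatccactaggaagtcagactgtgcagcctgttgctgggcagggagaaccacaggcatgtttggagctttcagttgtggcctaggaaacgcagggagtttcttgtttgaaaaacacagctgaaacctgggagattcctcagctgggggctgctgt
The TATA box TATAAA (present in 12.4% of the 32851 RefSeq promoter windows of that length), the TEAD motif GGAATG (12.6%), the AP-1 motif TGANTCA (6.7%) and the HNF4 motif CAAAGTCCA (0.4%), searched on both strands, had no match before either gene, nor before Tm4sf5 or Tm4sf19. RefSeq promoter sequences matched 4 of the 5 members, all but Tm4sf20. No match says only that these letters are not in these windows, and the motifs were chosen after the sequences had been read.

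Tm4sf4 (gene ID 229302) had scores of −6.07, −5.62 and −6.30 across the Prox1-in-Cy5 arrays and −8.91 in the Prox1-in-Cy3 profile. It was far below 0 in every profile and the lowest of the 5 members on each of them. In both orientations together its effect was −7.35 ± 0.68 SD units (SE of a limma fit over 4 profiles with the dye orientation as a random block; 95% interval −9.00 to −5.69), rank 15 from the bottom of 41230 features. With Prox1 in Cy3 it ranked 6 from the bottom, and by its mean with Prox1 in Cy5, −6.0 ± 0.35 (SD, n = 3), it ranked 44. Both orientations thus placed it among the extremes, although not at the same score.

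Tm4sf1 (gene ID 17112), the L6 antigen gene, had scores of −3.0, −3.10 and −3.26 across the Prox1-in-Cy5 arrays and −3.95 in the Prox1-in-Cy3 profile. All 4 profiles lay below −2.9 and those with Prox1 in Cy5 close together, with an SD of 0.13 (n = 3) against a median of 0.154 over all features. Its effect was −3.50 ± 0.29 SD units (SE; 95% interval −4.20 to −2.81), rank 290 from the bottom. Only Tm4sf4 among its relatives had a lower effect, and the intervals of the pair did not overlap. Scores below −3 in both orientations, on the mean with Prox1 in Cy5, were shared by 309 of the 41230 features, Tm4sf1 and Tm4sf4 among them, whereas 40 features lay above 3 in both.

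**Figure D1:**
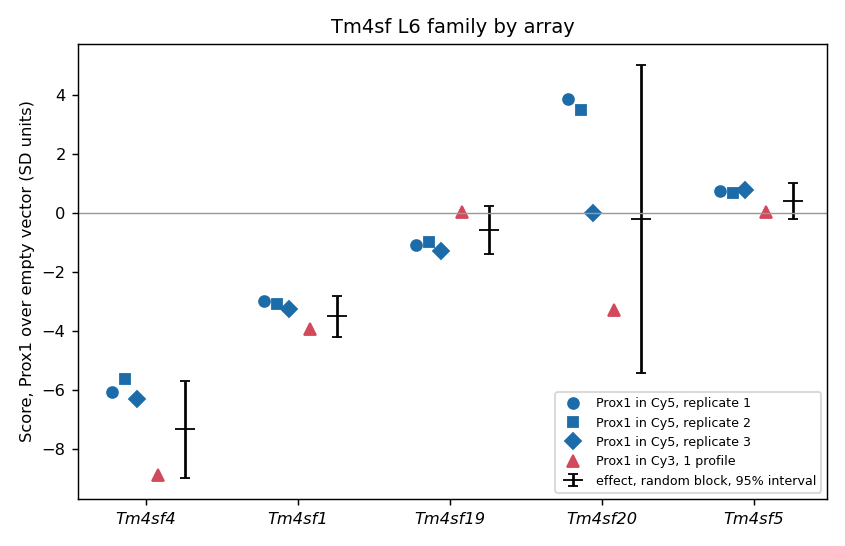
Scores of the 5 members (vertical axis, Prox1 over empty vector, SD units) on the 3 arrays with Prox1 in Cy5 (blue; circle, square and diamond for replicates 1, 2 and 3) and in the 1 distinct profile with Prox1 in Cy3 (red triangle), with the effect and its 95% interval in black. Tm4sf4 and Tm4sf1 lie below −2.9 in every profile, Tm4sf19 and Tm4sf5 lie near 0 with Prox1 in Cy3, and Tm4sf20 spreads from 3.87 to −3.30.

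Tm4sf19 (gene ID 277203), the member linked to osteoclasts, had scores of −1.10, −0.99 and −1.28 across the Prox1-in-Cy5 arrays and 0.025 in the Prox1-in-Cy3 profile. The arrays with Prox1 in Cy5 were all below 0 and the other orientation was at 0. Its effect was −0.59 ± 0.33 SD units (SE; 95% interval −1.40 to 0.21). A value near −1.1 was therefore seen in 1 orientation and not in the other.

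Tm4sf5 (gene ID 75604), the relative studied in liver cancer, was the only member above 0 in all 4 profiles. Its scores were 0.74, 0.66 and 0.76 across the Prox1-in-Cy5 arrays and 0.037 in the Prox1-in-Cy3 profile. Its effect was 0.40 ± 0.25 SD units (SE; 95% interval −0.21 to 1.01), against a median of 0.0374 over all features. The 3 arrays with Prox1 in Cy5 agreed within an SD of 0.053, and 9.09% of features had a smaller spread.

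Tm4sf20 (gene ID 66261), the gut epithelial member, gave no single direction. Its scores were 3.87, 3.49 and 0.0021 across the Prox1-in-Cy5 arrays and −3.30 in the Prox1-in-Cy3 profile. Replicates 1 and 2 were high, replicate 3 was at 0, and the other orientation was about as far below 0 as those 2 arrays were above it. Only 55 of the 41230 features (0.133%) had a spread among the arrays with Prox1 in Cy5 at least as large as its SD of 2.13 (n = 3). The effect was −0.21 ± 2.16 SD units (SE; 95% interval −5.45 to 5.02), an interval that holds the effect of Tm4sf1 as well as its opposite. Without replicate 3 it was 0.38 ± 1.62. In 496 features replicates 1 and 2 both lay more than 3 from 0 and within 0.5 of each other. In 3 of these, Tm4sf20 included, replicate 3 was within 0.1 of 0. The same count was 0 of 475 for replicate 1 and 0 of 520 for replicate 2.

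By effect the members thus ran from Tm4sf4 through Tm4sf1, Tm4sf19 and Tm4sf20 to Tm4sf5. The intervals of Tm4sf19, Tm4sf20 and Tm4sf5 overlapped. Differences between members were not tested, so the order of these 3 is not settled. The interval of Tm4sf20 also covered all of the Tm4sf1 interval. Of the 5 members 2 were lower past an adjusted p of 0.05 in the limma fit (Benjamini-Hochberg over all features) and 0 were higher. Over all 41230 features 7.66% passed, 4.58% lower and 3.08% higher. With the 2 orientations taken as replicates, 0 features passed. Since the comparison of Prox1 with vector cells led to the choice of the family, nothing is read from the count of members. The median effect of the 5 members in the fit per gene was −0.59, against 0.0319 over the 19087 genes with a symbol.

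The difference between the dye orientations was tested for each member with limma. It is the mean of the arrays with Prox1 in Cy5 minus the profile with Prox1 in Cy3. That difference comes from the same scores that led to the choice of Tm4sf4, and the other members were chosen with these values in view. For all 5 members it is therefore a description only. All 5 members passed an adjusted p of 0.05, as did 40.7% of all features. This test has no replicate of the Prox1-in-Cy3 profile, so its error is taken wholly from the 3 other arrays and may be too small. Tm4sf20 differed most, by 5.75 ± 1.47 SD units (SE; adjusted p = 0.026), a difference larger in size than that of 99.9% of features. Without replicate 1, 2 or 3 the difference of Tm4sf20 was 5.04 ± 1.35, 5.23 ± 1.49 and 6.97 ± 0.23 (adjusted p = 0.042, 0.045 and 0.00086). Tm4sf4 differed by 2.91 ± 0.28 (adjusted p = 0.0014), larger than 98.2% of features, and was lower with Prox1 in Cy3. For Tm4sf1 the difference was 0.83 ± 0.18 (adjusted p = 0.015) and for Tm4sf5 0.68 ± 0.16 (adjusted p = 0.020). Only Tm4sf19 had the opposite sign, at −1.15 ± 0.19 (adjusted p = 0.0057). In size, the differences of Tm4sf1, Tm4sf5 and Tm4sf19 were larger than those of 67.6%, 60.3% and 79.0% of features. Dye, RNA isolation and scaling can differ between the orientations and cannot be told apart.

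**Figure D2:**
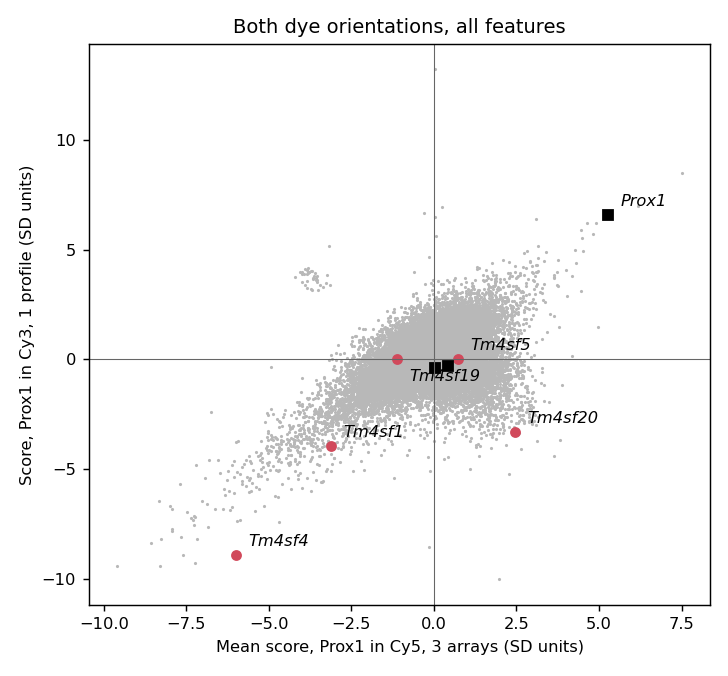
Mean score of each of 41230 features on the 3 arrays with Prox1 in Cy5 (horizontal axis, SD units) against its score in the 1 profile with Prox1 in Cy3 (vertical axis, SD units), with the 5 members in red and the 3 Prox1 features as black squares. Tm4sf4 and Tm4sf1 lie in the lower left with other features low in both orientations, and Tm4sf20 lies in the lower right at 2.45 and −3.30.

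The genes whose scores were most like those of each member were found over the 4 profiles, by Euclidean distance between gene means. Tm4sf4 had no close match: the nearest were the actin-binding profilin gene Pfn1 at a distance of 2.19 SD units, the serine protease gene Prss55 at 2.22 and the clusterin gene Clu at 2.26. Tm4sf1 had 39 genes within 1 SD unit, led by the glucuronosyltransferase gene Ugt1a6b at 0.35, the aldehyde dehydrogenase gene Aldh1a7 at 0.35 and Ush1g at 0.39. Tm4sf20 had 0 genes within 1 SD unit. The nearest were Islr2 at 1.01, F630111L10Rik at 1.10 and Pira1, a gene of the paired immunoglobulin-like receptors, at 1.20. Pira1 had scores of 2.79, 3.42 and −0.44 across the Prox1-in-Cy5 arrays and −2.99 in the Prox1-in-Cy3 profile. A low replicate 3 is part of what made it near to Tm4sf20. Tm4sf5 lay within 1 SD unit of 4900 genes, nearest to Magea8 (0.038), the RNA polymerase I subunit gene Polr1b (0.088) and the β2-microglobulin gene B2m (0.10). Tm4sf19 lay within 1 SD unit of 1373 genes, nearest to the serine palmitoyltransferase gene Sptlc1 (0.098), Esyt3 (0.17) and Tor1b (0.18). Tm4sf5 and Tm4sf19 thus sat where many genes sit, and Tm4sf4 and Tm4sf20 did not. Tm4sf4 was chosen for an extreme score, where few genes lie, so nothing is read from its lack of a close match.

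Genes beside the members in the genome were set next to them. For each member the 5 nearest measured protein-coding genes on each side were taken from the RefSeq order, which gave 40 distinct genes outside the family. Around Tm4sf1 and Tm4sf4 0 of 10 neighbours passed an adjusted p of 0.05 (limma, random block). Mab21l1, next to Tm4sf1, had an effect of 0.022 ± 0.35 SD units (SE; adjusted p = 0.998), and Wwtr1, which encodes the Hippo pathway coactivator TAZ and lies next to Tm4sf4, had −0.34 ± 0.19 (adjusted p = 0.43). Wwtr1 had the lowest effect of these 10 genes and Tsc22d2 the highest, at 1.47 ± 0.40 (adjusted p = 0.088). Beside them Ccdc169, Sohlh2, Dclk1, Nbea, Commd2, Rnf13 and Pfn2 had effects between −0.11 and 0.88. The scores of both members lay far below those of every measured gene next to them. Since the family was chosen by the low score of Tm4sf4, this contrast is a description and not a test.

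The neighbours of Tm4sf5 also gave 0 calls, with Zmynd15 at −0.27 ± 0.39 and Vmo1 at 0.10 ± 0.20 SD units beside it. Next to Tm4sf19 lay Ubxn7 at 0.40 ± 0.19 and Tctex1d2 at 1.78 ± 0.51 (adjusted p = 0.34 and 0.10). Further out, the transferrin receptor gene Tfrc fell, with an effect of −3.36 ± 0.42 (adjusted p = 0.0077), and the ubiquitin ligase gene Fbxo45 rose by 1.26 ± 0.23 (adjusted p = 0.027). Next to Tm4sf20 lay the mitochondrial fission gene Mff at 0.39 ± 0.23 and Agfg1 at −0.69 ± 0.23, and neither passed (adjusted p = 0.46 and 0.16). Near them Rhbdd1, which encodes a rhomboid protease, rose by 2.54 ± 0.26 (adjusted p = 0.0043) and the type IV collagen gene Col4a3 by 1.70 ± 0.23 (adjusted p = 0.010), while the chemokine gene Ccl20 fell, with an effect of −1.89 ± 0.23 (adjusted p = 0.0069). In all, 3 of the 40 neighbours rose and 2 fell, 12.5% together, against 9.99% of all genes with a symbol.

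**Figure D3:**
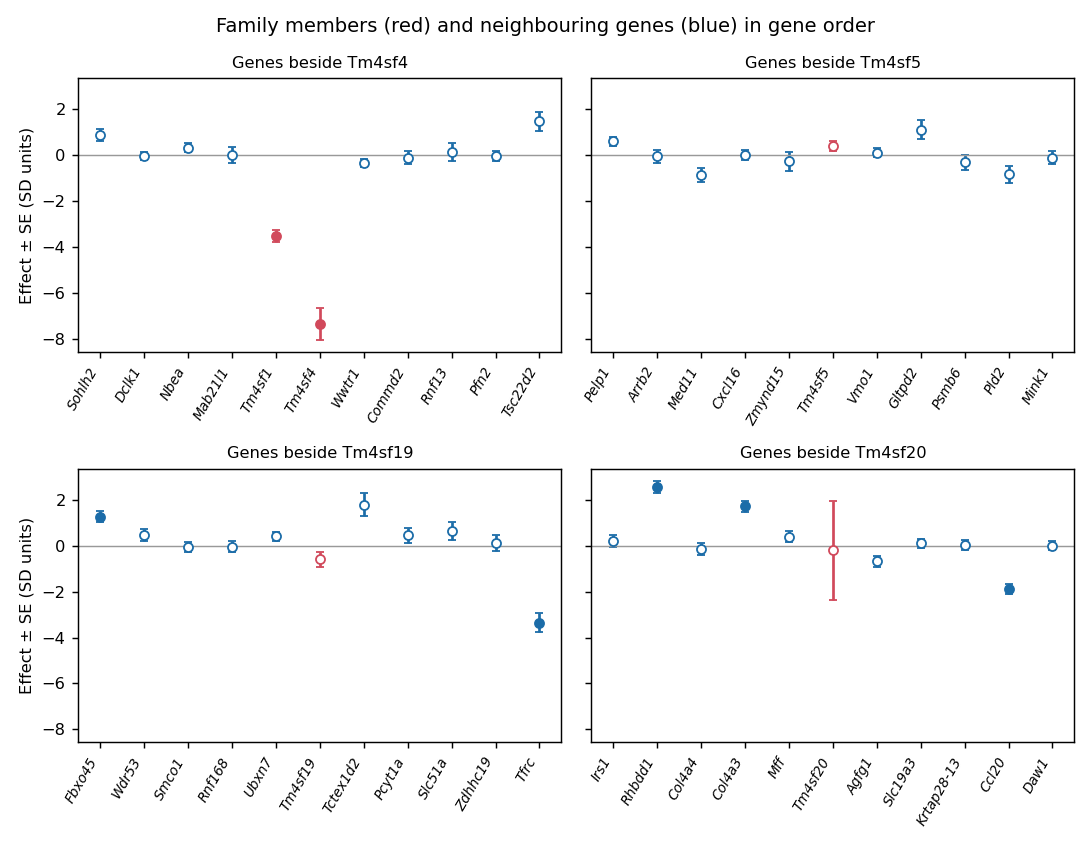
Effect of Prox1 (vertical axis, SD units, bars ± SE) around Tm4sf4, Tm4sf5, Tm4sf19 and Tm4sf20, in gene order. Each panel holds the 5 nearest measured protein-coding genes on each side, family members in red and other genes in blue. Filled points mark genes past an adjusted p of 0.05. Tm4sf1 is drawn beside Tm4sf4 and has no panel of its own, so its neighbour Ccdc169 is not shown. Tm4sf4 at −7.34 and Tm4sf1 at −3.50 in the fit per gene stand between open points, and Tfrc at −3.36 and Rhbdd1 at 2.54 are the furthest from 0 of the neighbours.

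Related genes, from lists made with earlier results of these data known, were counted in the fit per gene. In that fit 9.99% of genes passed, 6.11% lower and 3.88% higher. Tetraspanins, which share the outline of L6 proteins and organise integrins and other receptors in the membrane, had 8 of 29 measured genes lower and 0 higher. Their median effect was −0.48 SD units, against 0.0319 over all genes. Upk1b, a uroplakin of the urothelium, had scores of −6.07, −5.87 and −6.25 across the Prox1-in-Cy5 arrays and −6.08 in the Prox1-in-Cy3 profile, and its effect of −6.07 ± 0.25 (SE; limma adjusted p = 0.00033) was the lowest of the list. Tspan8, a tetraspanin of digestive epithelia, had scores of −4.74, −4.61 and −4.78 across the Prox1-in-Cy5 arrays and −6.26 in the Prox1-in-Cy3 profile and an effect of −5.43 ± 0.37 (adjusted p = 0.0011). Both were low on every array, as Tm4sf4 was.

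Tspan13 fell as well, with an effect of −3.02 ± 0.25 SD units, as did Tspan15, a partner of the protease ADAM10, at −1.99 ± 0.25 (adjusted p = 0.0022 and 0.0075). The other 4 that fell were Tspan3 at −1.93, Cd53 at −1.88, Cd151 at −1.62 and Cd82 at −1.32. The remaining 21 did not pass, and the highest effect among them was 0.82. Some of these were opposed between the orientations. Tspan10, Tspan31 and Cd63 had means of 1.64, 1.32 and 0.97 with Prox1 in Cy5. With Prox1 in Cy3 they stood at −0.91, −0.87 and −2.16. Without replicate 3 the count of tetraspanins past the threshold was 5. The signs of the 2 orientations agreed for 21 of the 29 genes, against 10822 of 19087 genes with a symbol.

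**Figure D4:**
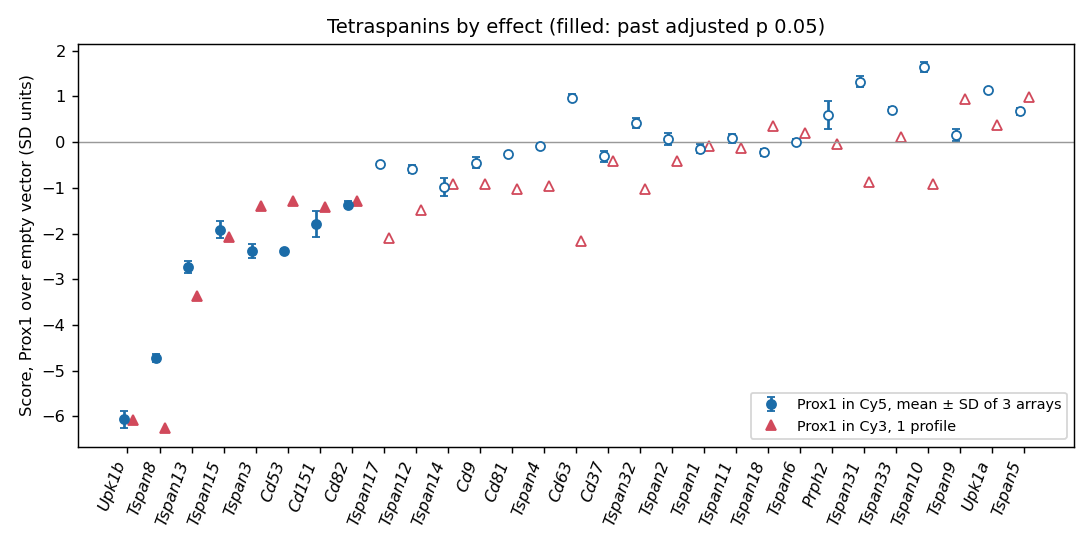
Scores of the 29 measured tetraspanin genes (vertical axis, Prox1 over empty vector, SD units), ordered by effect, as mean ± SD of the 3 arrays with Prox1 in Cy5 (blue circles) and the 1 profile with Prox1 in Cy3 (red triangles), filled for genes past an adjusted p of 0.05. Upk1b and Tspan8 lie lowest in both orientations, and all 8 filled genes lie below 0.

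Of 14 measured genes whose products are known, mostly from human cells, to act with L6 proteins, 2 fell and 1 rose, with a median effect of −0.012 SD units. Cd151, an integrin-binding tetraspanin that is also in the list above, fell, with an effect of −1.62 ± 0.31 (limma adjusted p = 0.031). Cd44, the hyaluronan receptor, fell, with −1.47 ± 0.30 (adjusted p = 0.037), and the growth factor receptor gene Igf1r rose by 1.06 ± 0.22 (adjusted p = 0.039). The tyrosine kinase gene Src stood at 0.80 ± 0.22 (adjusted p = 0.091). These calls lay close to the threshold: without replicate 1, 2 or 3 the list had 1, 0 and 0 calls.

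Transcription factors of gut endoderm, which direct liver, pancreas and intestine, had 3 of 17 measured genes lower and 0 higher, with a median effect of −0.13 SD units. Hnf4a fell, with an effect of −2.96 ± 0.19 (limma adjusted p = 0.00097), Onecut2 with −2.77 ± 0.23 (adjusted p = 0.0021) and Foxa3 with −1.67 ± 0.34 (adjusted p = 0.035). Onecut1 stood at −1.71 ± 0.40 and did not pass (adjusted p = 0.053).

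Markers of the cell types in which L6 genes are best known were counted in the same fit, from lists made with results for Cdh17, Alb, Trf and others already known. Of 10 enterocyte genes 5 fell and 0 rose, with a median effect of −1.05 SD units. Cdh17, the liver-intestine cadherin, had scores of −8.43, −8.22 and −8.35 across the Prox1-in-Cy5 arrays and −6.44 in the Prox1-in-Cy3 profile, and an effect of −7.45 ± 0.43 (limma adjusted p = 0.00081). The fatty acid-binding gene Fabp2 (−4.08 ± 0.19), the intestinal alkaline phosphatase gene Alpi (−3.87 ± 0.30) and the microvillar villin gene Vil1 (−1.80 ± 0.25) also fell, as did the keratin gene Krt20 (−2.85 ± 0.43). Their adjusted p-values lay between 0.00050 and 0.014. The 5 other enterocyte genes had effects between −0.31 and 0.38 and did not pass.

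Among 8 hepatocyte genes Trf and Alb fell, with effects of −5.71 ± 0.31 and −5.17 ± 0.54 SD units (limma adjusted p = 0.00072 and 0.0042), and 0 rose. Apob at −1.07 ± 0.25 and Apoa1 at −1.04 ± 0.29 did not pass (adjusted p = 0.055 and 0.094). Nor did the other 4, Fgb at −0.70, Ttr at −0.34, Ahsg at −0.043 and the fetal gene Afp at 0.33, and each of these was above 0 on the mean with Prox1 in Cy5 (0.47, 0.26, 0.17 and 0.76) and below 0 with Prox1 in Cy3. The signs of the 2 orientations thus agreed for 4 of the 8 hepatocyte genes, and their median effect was −0.87. Of 6 measured cholangiocyte genes, with a median effect of −0.19, Krt19 alone fell, with −3.47 ± 0.63 (adjusted p = 0.026), and it did not pass without replicate 1, 2 or 3. Epcam, Sox9 and Muc1 stood at −0.79, 0.53 and −0.33.

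Markers of cells outside the epithelium gave 0 calls in the limma fit with the random block. This held for 8 endothelial genes, 8 genes of macrophages and osteoclasts and 8 of fibroblasts and stellate cells. An unadjusted p under 0.05 in the same fit was found for 0, 1 and 2 of them. Over all 19087 genes with a symbol, 4548 had an unadjusted p under 0.05 and 9.99% passed the adjusted threshold. Lists of 8 genes hold few calls at that share, so nothing is read from the 0 calls. The endothelial effects ran from −0.18 to 0.66 SD units, with Esam highest and Cdh5 lowest, and Tek and Egfl7 at 0.14 and −0.12. Those of macrophages and osteoclasts, the cells in which Tm4sf19 is known, ran from −0.43 (Calcr) to 0.73 (Ocstamp), with Lyz2 at 0.36 and Ctsk at 0.41. Those of fibroblasts and stellate cells ran from −1.30 (Des) to 0.73 (Dcn), with Acta2 at −0.42 and Col1a1 at −0.24. Some of these effects joined opposed orientations. Esam had scores of 1.94, 2.23 and 2.17 across the Prox1-in-Cy5 arrays and −1.03 in the Prox1-in-Cy3 profile. The scores of Ctsk were 1.23, 1.72 and 1.56, against −0.85 with Prox1 in Cy3. Signs of the 2 orientations agreed for 2 of the 8 endothelial genes and 4 of the 8 of macrophages and osteoclasts. For fibroblasts and stellate cells they agreed for 5 of the 8. With a fixed dye term 1 endothelial gene, 3 of macrophages and osteoclasts and 4 of fibroblasts and stellate cells passed. The Prox1-in-Cy5 arrays alone gave 3, 4 and 4. Of all 19087 genes with a symbol, 9565 passed with the fixed dye term and 11897 with those arrays alone. Scores hold no level, so whether these cell types were present was not tested.

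**Figure D5:**
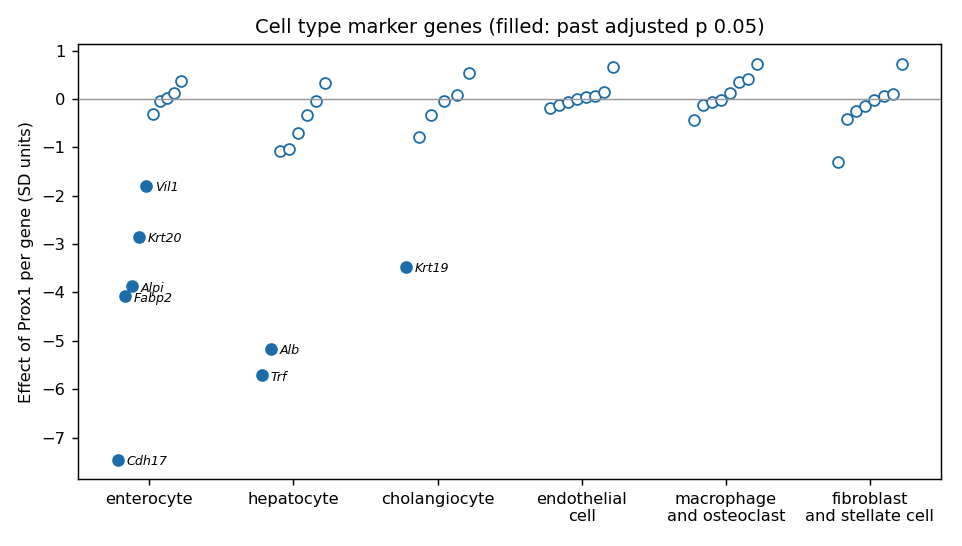
Effect of Prox1 per gene (vertical axis, SD units) for markers of 6 cell types, each point a gene, filled and named where it passed an adjusted p of 0.05. The filled points, 5 enterocyte, 2 hepatocyte and 1 cholangiocyte gene, all lie below 0, and the endothelial, macrophage and osteoclast, and fibroblast and stellate cell genes are all open.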

How the data were processed

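Per the labels' protocols, a column kit, or for replicate 4 a phenol reagent, yielded DNase-treated RNA, whose cDNA was PCR-amplified and dye-labelled. Amplification can distort ratios between transcripts. The authors deposited 1 score per feature and array, whose SD over features was 1 on every array. No source used here gives the scanner, normalization, log base or genome build. Signal over background is unknown, and the number of arrays limits the precision. Of 44290 features 41230 had values.

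Features were named from the platform annotation updated by gene identifier through RefSeq. Scores were fitted with limma 3.58.1 in R 4.3.3, as an intercept with the dye orientation as a random block (consensus correlation 0.796), eBayes and Benjamini-Hochberg adjustment over 41230 features. Lists and neighbours used means per gene (28617 units, of which 19087 were genes with a symbol; correlation 0.793). A model with a fixed dye term was kept as an alternative, because its error comes from 1 orientation alone. The members and lists were chosen with earlier results of these data known. Named genes were all members, Prox1, the 4 genes of each list with the smallest p, neighbours next to a member or past the threshold, and the 3 genes nearest to each member. Genes outside this rule were named after their values were seen.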

Additional observations from a re-analysis of the deposited data

Results flagged for a closer look

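For each of the 5 members, the mean of the 3 arrays with Prox1 in Cy5 differed from the profile with Prox1 in Cy3 past an adjusted p of 0.05 in limma, as for 40.7% of all features. Since the members were chosen with these scores in view, this is a description only. The differences were 0.833 SD units for Tm4sf1, 2.91 for Tm4sf4, 0.679 for Tm4sf5, −1.15 for Tm4sf19 and 5.75 for Tm4sf20. Only Tm4sf20 changed sign between the orientations with scores far from 0 in both. A mean above 2 with Prox1 in Cy5 beside a score below −3 with Prox1 in Cy3 was found in 19 of 41230 features, Tm4sf20 among them. Which array of Tm4sf20 holds the true value was not tested.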

How the results depend on the processing

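With the orientations as 2 replicates 0 features passed in limma (5498 had an unadjusted p under 0.05; smallest adjusted p 0.13). Likewise 0 of the genes with a symbol, 0 genes of the 3 related lists and 0 neighbours passed (3086, 18 and 8 unadjusted), and Tm4sf1 at −3.54 and Tm4sf4 at −7.45 did not pass (adjusted p = 0.14 and 0.15). In the other 10 settings their effects lay between −3.56 and −3.12 and between −7.47 and −6.0, a description only, since the family was chosen by this comparison. A fixed dye term gave 18604 features, 9565 genes, 36 related genes and 22 neighbours, against 3160, 1906, 13 and 5 with the random block. No term gave 9524, 5352, 24 and 13, and the 3 Prox1-in-Cy5 arrays by themselves 23983, 11897, 38 and 25. Of the 10 enterocyte, 8 hepatocyte and 6 cholangiocyte markers measured, 5, 2 and 1 passed with the random block. The fixed dye term gave 6, 7 and 4, beside 9565 of all 19087 genes with a symbol, and the orientations as 2 replicates gave 0. With the Prox1-in-Cy5 arrays alone Tm4sf5 (0.72), Tm4sf19 (−1.12) and Tm4sf20 passed, the last reversed at 2.45 (adjusted p = 0.031). With a fixed dye term Tm4sf5 (0.38) and Tm4sf19 (−0.55) passed. Leaving out 1 array with Prox1 in Cy5, at the same correlation and with fewer degrees of freedom, gave 1455 to 1624 features, 983 to 1104 genes, 8 to 10 related genes and 4 to 5 neighbours. Member effects then ran from −3.54 to −3.48 for Tm4sf1, −7.47 to −7.29 for Tm4sf4, 0.38 to 0.41 for Tm4sf5, −0.62 to −0.54 for Tm4sf19 and −0.64 to 0.38 for Tm4sf20. The orientation difference of Tm4sf5 was 0.66 to 0.71, and did not pass without replicate 1 (0.67, adjusted p = 0.054). The cause of these shifts was not tested. Centring the columns and quantile normalization changed no member's call. No paired analysis was possible because the 3 Prox1-in-Cy3 columns were identical and the orientations share no replicate numbers.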

Other observations

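In 38 of 41230 features the mean with Prox1 in Cy5 was below −2.8 and the score with Prox1 in Cy3 above 2.8. Of these 38, 37 carry no single gene symbol, against 9530 of all 41230 features. Their means with Prox1 in Cy5 lay between −4.21 and −3.16 and their scores with Prox1 in Cy3 between 3.14 and 5.18, which sets them apart in the plot of both orientations. No member of the L6 family is among them.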
